A study of Mus musculus with 6 samples.

Results

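Forkhead proteins are transcription factors that bind DNA through a winged-helix domain, and 8 of their genes that are active in or around facial mesenchyme were examined here: Foxc1, Foxc2, Foxd1, Foxf1, Foxf2, Foxl2, Foxp1 and Foxp2. Accessible chromatin near these genes was measured by bulk ATAC-seq, where Tn5 transposase cuts and tags open DNA, in wild-type mouse embryonic face at E11.5. There were 6 peak lists, 2 each labelled maxillary process (most of the upper jaw), mandibular process (the lower jaw) and nose. Peaks that shared 1 bp or more across lists were joined into 382006 regions, each assigned to the protein-coding gene whose start site lay nearest to its strongest summit, within 200 kb. This gave 505 regions for the 8 genes, of 302188 that lay within 200 kb of any protein-coding start. The cell type of all libraries was given as mixed, and neither separate embryos nor pooling is stated for the 2 libraries of a label, so p-values measure only the spread between these libraries, which may be technical. In their file names, the 4 lists labelled as jaw tissue bear the short form of the opposite jaw process. The text therefore speaks of libraries labelled maxillary or mandibular process, and every direction between the jaw labels rests on those labels.

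The genes fall into families with known roles. Foxc1 and Foxc2 act in mesenchyme of the skull, eye and vessels, and loss of Foxc1 disturbs jaw and skull vault growth. Foxf1 and Foxf2 are targets of hedgehog signals from the facial epithelium, and mice without Foxf2 have a cleft palate. Foxd1 marks stromal mesenchyme and part of the retina, and Foxl2 acts in eyelid mesenchyme and the ovary. Foxp1 and Foxp2 encode repressors with a second, zinc-finger domain, and FOXP2 variants in people affect control of the face and mouth in speech. Distal accessible regions of such genes often act as enhancers, in which a single gene has many elements that open in different places. Accessibility says that DNA was open, not that an element was active.

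Among the 86 regions called in all 6 libraries, 7 (8.14%) differed in strength in any of the 3 pairs of labels, against 5.72% of such regions over the genome. Called in both libraries of 1 label and in none of the other 4 were 33 of the 505 (6.53%), against 7.38% of all regions. The sequences of all 7 and of the best-ranked label-specific region of each label are given here, because the comparisons turn on them. Each is the reference sequence of GRCm38 (mm10) on the plus strand, 201 bases centred on the strongest summit, and none overlaps an annotated untranslated region. Regions are named by gene and by their order along the chromosome. Capitals mark every match to the motifs searched on both strands: forkhead (TGTTTAC) and its core (TGTTTA), E-box (CATCTG), homeodomain (TAATTA), TFAP2 (GCCNNNGGC), SOX (ACAAAG), nuclear receptor (AGGTCA), GLI (GGGTGGTC) and CTCF by name. Every full forkhead match is also a core match.
Foxc1_49, chr13:31912149-31912349: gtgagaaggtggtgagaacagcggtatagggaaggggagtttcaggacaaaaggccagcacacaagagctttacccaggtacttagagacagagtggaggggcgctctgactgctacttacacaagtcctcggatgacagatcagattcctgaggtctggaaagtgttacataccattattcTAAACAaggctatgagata
Foxf1_19, chr8:120981019-120981219: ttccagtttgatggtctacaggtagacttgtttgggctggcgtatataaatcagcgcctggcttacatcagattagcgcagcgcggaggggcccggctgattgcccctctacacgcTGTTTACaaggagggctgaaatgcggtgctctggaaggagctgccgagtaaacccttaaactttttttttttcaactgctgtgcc
Foxp1_2, chr6:98829908-98830108: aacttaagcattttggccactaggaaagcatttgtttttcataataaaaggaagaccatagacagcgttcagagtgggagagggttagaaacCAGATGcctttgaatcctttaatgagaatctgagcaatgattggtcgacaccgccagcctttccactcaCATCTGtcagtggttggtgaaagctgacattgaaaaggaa
Foxp1_136, chr6:99354473-99354673: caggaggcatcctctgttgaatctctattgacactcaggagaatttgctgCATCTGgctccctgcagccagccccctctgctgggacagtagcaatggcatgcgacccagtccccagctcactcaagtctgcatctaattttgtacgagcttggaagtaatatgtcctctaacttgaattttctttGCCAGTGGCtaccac
Foxp1_138, chr6:99375045-99375245: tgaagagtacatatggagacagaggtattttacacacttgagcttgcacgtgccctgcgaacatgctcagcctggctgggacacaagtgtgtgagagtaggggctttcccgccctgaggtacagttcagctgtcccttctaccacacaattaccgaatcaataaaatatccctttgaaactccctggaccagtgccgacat
Foxp2_2, chr6:14830958-14831158: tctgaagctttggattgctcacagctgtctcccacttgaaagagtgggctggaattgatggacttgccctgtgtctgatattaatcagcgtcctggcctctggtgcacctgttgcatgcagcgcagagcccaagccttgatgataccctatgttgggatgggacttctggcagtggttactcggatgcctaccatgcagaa
Foxp2_124, chr6:15378529-15378729: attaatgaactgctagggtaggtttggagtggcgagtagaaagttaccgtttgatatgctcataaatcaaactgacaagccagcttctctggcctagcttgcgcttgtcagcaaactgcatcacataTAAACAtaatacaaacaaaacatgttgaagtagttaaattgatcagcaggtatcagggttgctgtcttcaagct
Foxp1_160, chr6:99453789-99453989: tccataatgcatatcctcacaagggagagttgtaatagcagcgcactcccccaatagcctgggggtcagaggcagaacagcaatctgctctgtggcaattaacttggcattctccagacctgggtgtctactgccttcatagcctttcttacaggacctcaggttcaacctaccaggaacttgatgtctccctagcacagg
Foxp2_21, chr6:14979503-14979703: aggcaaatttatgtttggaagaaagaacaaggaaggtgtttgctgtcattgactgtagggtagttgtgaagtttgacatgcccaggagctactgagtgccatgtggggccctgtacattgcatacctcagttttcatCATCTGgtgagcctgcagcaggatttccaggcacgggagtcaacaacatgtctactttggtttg
Foxd1_16, chr13:98413366-98413566: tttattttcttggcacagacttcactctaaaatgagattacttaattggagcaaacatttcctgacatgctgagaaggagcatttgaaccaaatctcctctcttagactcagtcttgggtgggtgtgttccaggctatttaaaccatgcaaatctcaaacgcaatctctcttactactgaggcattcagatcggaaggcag

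Of these windows, Foxf1_19 held a full forkhead match, and Foxc1_49 and Foxp2_124 held the core. E-box matches lay in Foxp1_2, Foxp1_136 and Foxp2_21. The windows of Foxp1_138, Foxp2_2, Foxp1_160 and Foxd1_16 held no match to any motif searched.

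Peak lists held 219779 to 299731 summits, and depth in reads is unknown. In 4 lists the deposited −log10 q began at 1.3, while those of maxillary replicate 2 and mandibular replicate 1 began at 2.55 and 1.62. Promoter regions, with a summit within 1 kb of the start, of the facial mesenchyme markers Twist1, Prrx1, Prrx2, Pdgfra and Msx1 were called in all 6 libraries, 5 of 5 each. Promoters of epithelial markers were called too, 5 of 6 in the jaw libraries and 6 of 6 in nose, and of endothelial markers 2 to 4 of 4, of neuronal markers 3 or 4 of 4, of muscle markers 2 or 3 of 3 and of blood markers 0 to 2 of 3. The tissue was labelled as mixed, and a called promoter does not show that its cell type was present. Marker promoters separated the labels little: lower-jaw promoters (Hand1, Hand2, Dlx3, Dlx5, Dlx6) were called 4 of 5 in maxillary replicate 1 and 5 of 5 elsewhere, and frontonasal ones 4 of 4 everywhere. Of the upper-jaw promoters, Pou3f3 and Nr2f1 were called in all 6 libraries, and Nr2f2 in both maxillary libraries and in nose replicate 2. Promoters of nasal epithelium were called 4 of 4 in maxillary replicate 2 and nose replicate 1 and 3 of 4 in the others, the difference being Six3.

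The 8 genes together had more regions per length of DNA than most genes. Their territories, the stretches of DNA nearest to one of their starts within 200 kb, covered 2072 kb and held 24.4 regions per 100 kb, against 15.6 over all protein-coding genes and a median of 14.0 among genes. Each of the 8 exceeded that median, from 19.4 at Foxd1 to 61.4 at Foxc2. Regions were in introns in 360 cases, intergenic in 99, in coding exons in 14, in untranslated exons in 16, and in exons or introns of noncoding genes in 5 and 11. Called in all 6 libraries were 86 (17.0%), against 20.2% of all 302188 regions, and 213 (42.2%) were called in 1 library, against 42.7%. Between those extremes, 82 regions were called in 2 libraries, 56 in 3, 32 in 4 and 36 in 5. Regions called everywhere were wider, with a median of 605 bp against 93.0 bp for those called in 1 library, as was so over the genome (534 and 90.0 bp). The assignment ended at 200 kb: the farthest region inside lay 199.737 kb from Foxp2, the nearest outside lay 201.609 kb from Foxc1, and 65 regions nearest to one of the 8 genes lay beyond.

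**Figure D1:**
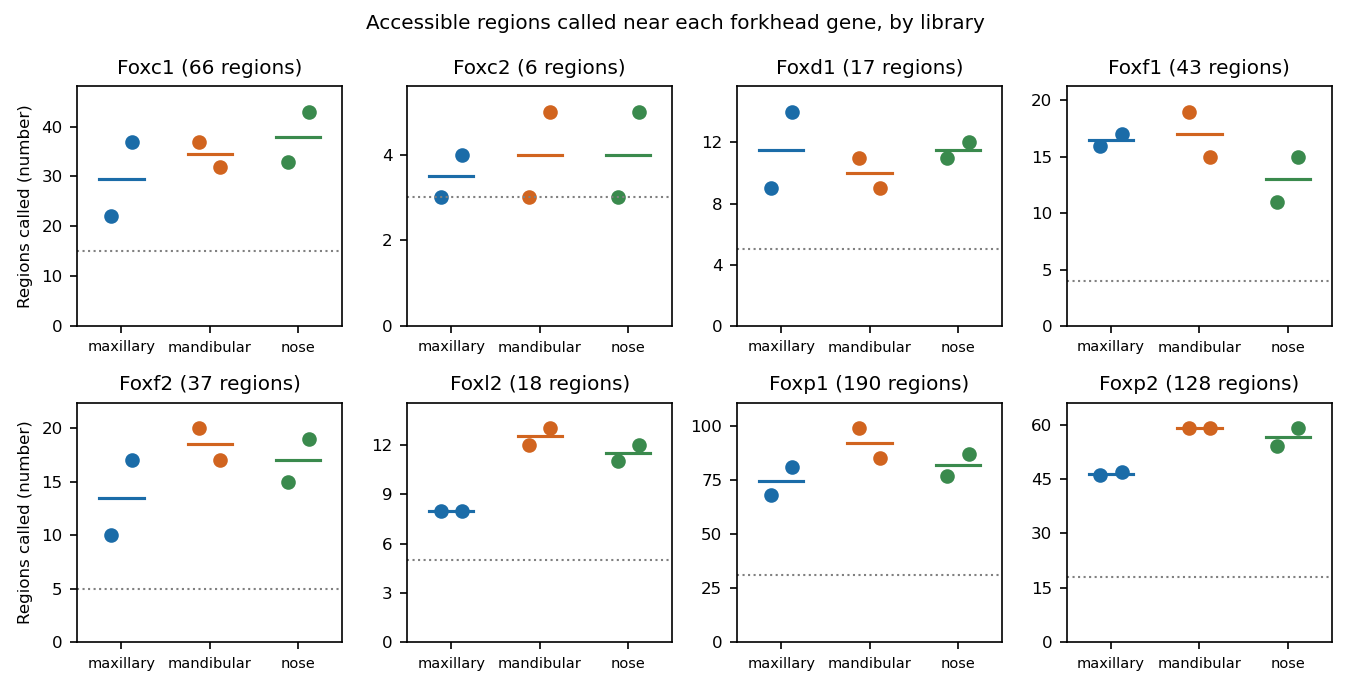
Number of accessible regions called near each gene (y axis, from 0) in each library (points) of the 3 labels (x axis), with label means as lines and the number called in all 6 libraries dotted. Maxillary replicate 1, the shortest list, was lowest or tied lowest for every gene but Foxf1, where nose replicate 1 had 11.

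The FOXP genes held most regions. Foxp1 (ENSMUSG00000030067, chr6:98925338-99522721, minus strand) had 190, of which 68 and 81 were called in the maxillary, 99 and 85 in the mandibular and 77 and 87 in the nose libraries. Foxp2 (ENSMUSG00000029563, chr6:14901349-15441977, plus strand) had 128, with 46 and 47 in maxillary, 59 in each mandibular, and 54 and 59 in nose libraries. For both genes the raw mandibular and nose counts were higher than the maxillary, except that nose replicate 1 fell within the maxillary range at Foxp1. Over all genes, regions called within 200 kb of a start numbered 116381 and 141702 in maxillary, 151637 and 142960 in mandibular, and 140807 and 151049 in nose libraries. Counts per library here and for the genes below are not corrected for these totals. In Foxp1 31 regions and in Foxp2 18 were called in all 6 libraries, and 166 and 113 regions lay in introns. The strongest Foxp1 promoter region was Foxp1_52, at an internal start of the gene, with a summit enrichment over local background of 9.54- and 9.15-fold in maxillary, 9.65- and 9.20-fold in mandibular and 11.05- and 9.93-fold in nose libraries. Foxp2_10, upstream of the first Foxp2 start, had 6.90- and 6.04-fold, 5.37- and 5.67-fold, and 7.10- and 6.49-fold. The nose libraries were highest at Foxp1_52 and the mandibular libraries lowest at Foxp2_10, and neither region passed the limma test between any labels.

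For each gene, the distal region with the best worst rank over the 6 lists is called the steadiest here. That of Foxp2, Foxp2_110 (chr6:15321337-15321987), lay in an intron 125 kb from the nearest start. It had folds of 12.8 and 13.1 in maxillary, 12.6 and 10.7 in mandibular and 12.8 and 11.9 in nose libraries. Both maxillary libraries were highest, by little, the mandibular and nose ranges overlapped, and no pair of labels passed the limma test. In Foxp1, Foxp1_93 (chr6:99159132-99160621, intron, 2.897 kb from a start) had 10.3 and 10.8, 8.46 and 9.11, and 10.5 and 10.6, with the mandibular libraries lowest. That difference did not pass the limma test across labels described with the strength comparison. At the most upstream Foxp1 start, Foxp1_177 had 4.44 and 4.15, 4.58 and 3.73, and 5.99 and 5.06, highest in the nose libraries, again without a call. At an internal Foxp2 start, Foxp2_65 had 4.49 and 5.65, 5.80 and 5.75, and 4.87 and 5.23, where maxillary and nose libraries overlapped.

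Foxc1 (ENSMUSG00000050295, chr13:31806633-31812476, plus strand) had 66 regions, of which 36 lay in introns of the neighbouring Gmds, which encodes an enzyme of GDP-fucose synthesis. Its counts per library were 22 and 37 for maxillary, 37 and 32 for mandibular and 33 and 43 for nose, and these overlap. Of the 66, 15 were called in all 6 libraries. The promoter region Foxc1_19 had folds of 7.73 and 6.46, 7.13 and 6.63, and 7.68 and 6.39 for maxillary, mandibular and nose, and the 3 labels overlapped. The steadiest distal region, Foxc1_45 in a Gmds intron 70.6 kb from the start, was stronger than the promoter in all 6 libraries, with 8.45 and 11.05, 11.9 and 13.3, and 13.2 and 10.7. Its maxillary libraries overlapped those of nose and lay below those of mandibular process.

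Its paralogue Foxc2 (ENSMUSG00000046714, chr8:121116171-121118895, plus strand) had the fewest regions, 6 in a territory of 9.77 kb between neighbours, and the highest density, 61.4 per 100 kb. Of these, 3 were called in all 6 libraries. Foxc2_3 at its start had folds of 6.89 and 7.15, 7.75 and 5.34, and 5.83 and 6.23. The mandibular range spanned those of the other labels, of which the maxillary was the higher, and no difference passed the test. The distal region Foxc2_1, 2.71 kb upstream, had 4.17 and 5.74, 6.82 and 4.02, and 3.90 and 5.19, again overlapping.

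Foxf1 (ENSMUSG00000042812, chr8:121084386-121088144, plus strand) stands next to Foxc2 and had 43 regions, 39 of them in introns of the annotated gene Gm20388, which spans the locus. Its libraries had 16 and 17, 19 and 15, and 11 and 15 regions, with nose at or below the jaw labels, and 4 were called in all 6 libraries, the lowest share among the 8 genes (9.30%). The promoter region Foxf1_39 had folds of 6.03 and 6.46, 5.94 and 7.40, and 8.78 and 7.51, highest in the nose libraries. The nose and jaw difference at this promoter missed the threshold (limma, log2 difference maxillary minus nose -0.39, Benjamini-Hochberg adjusted p = 0.494). Foxf1_6, 134 kb upstream, was the steadiest distal region, with 4.95 and 5.96, 8.74 and 8.50, and 8.35 and 7.11, in which both maxillary libraries were lowest.

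Foxf2 (ENSMUSG00000038402, chr13:31625816-31631403, plus strand) is the neighbour of Foxc1 and had 37 regions. Counts were 10 and 17, 20 and 17, and 15 and 19, and 5 regions were called in all 6 libraries. Its strongest promoter region, Foxf2_11, was weaker in every library than the strongest promoter region of each of the other 7 genes, with folds of 4.43 and 2.99, 3.40 and 2.70, and 4.16 and 4.43, the nose libraries being at or near the top. Its distal region Foxf2_18, 6.86 kb from the start, had 4.09 and 5.36, 5.58 and 4.62, and 6.65 and 5.0, which overlapped between labels.

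Foxd1 (ENSMUSG00000078302, chr13:98354242-98359305, plus strand) had 17 regions, 16 of them intergenic, and 5 were called in all 6 libraries. Counts were 9 and 14, 11 and 9, and 11 and 12. Its promoter region Foxd1_1 was 1377 bp wide, with folds of 6.27 and 6.66, 7.39 and 6.56, and 7.95 and 8.69. Both nose libraries were above all jaw libraries, but the test did not call the difference (limma, maxillary minus nose -0.38 on the log2 scale, Benjamini-Hochberg adjusted p = 0.487). Foxd1_9, 37.1 kb downstream, varied little, from 6.78 to 7.63 over the 6 libraries.

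Foxl2 (ENSMUSG00000050397, chr9:98955288-98958543, plus strand) had 18 regions within 23.2 kb, with counts of 8 and 8, 12 and 13, and 11 and 12. The maxillary libraries had the fewest and did not overlap the others. These counts are not corrected for list length or threshold. Maxillary replicate 1 was the shortest list, and the −log10 q of replicate 2 began at 2.55. Foxl2_9 at the start had folds of 6.22 and 4.21, 4.67 and 4.96, and 4.33 and 4.97, and Foxl2_17, 10.1 kb downstream, had 6.07 and 7.13, 6.61 and 6.50, and 7.30 and 9.91. The second of these was highest in the nose libraries, and neither passed the test between any labels.

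**Figure D2:**
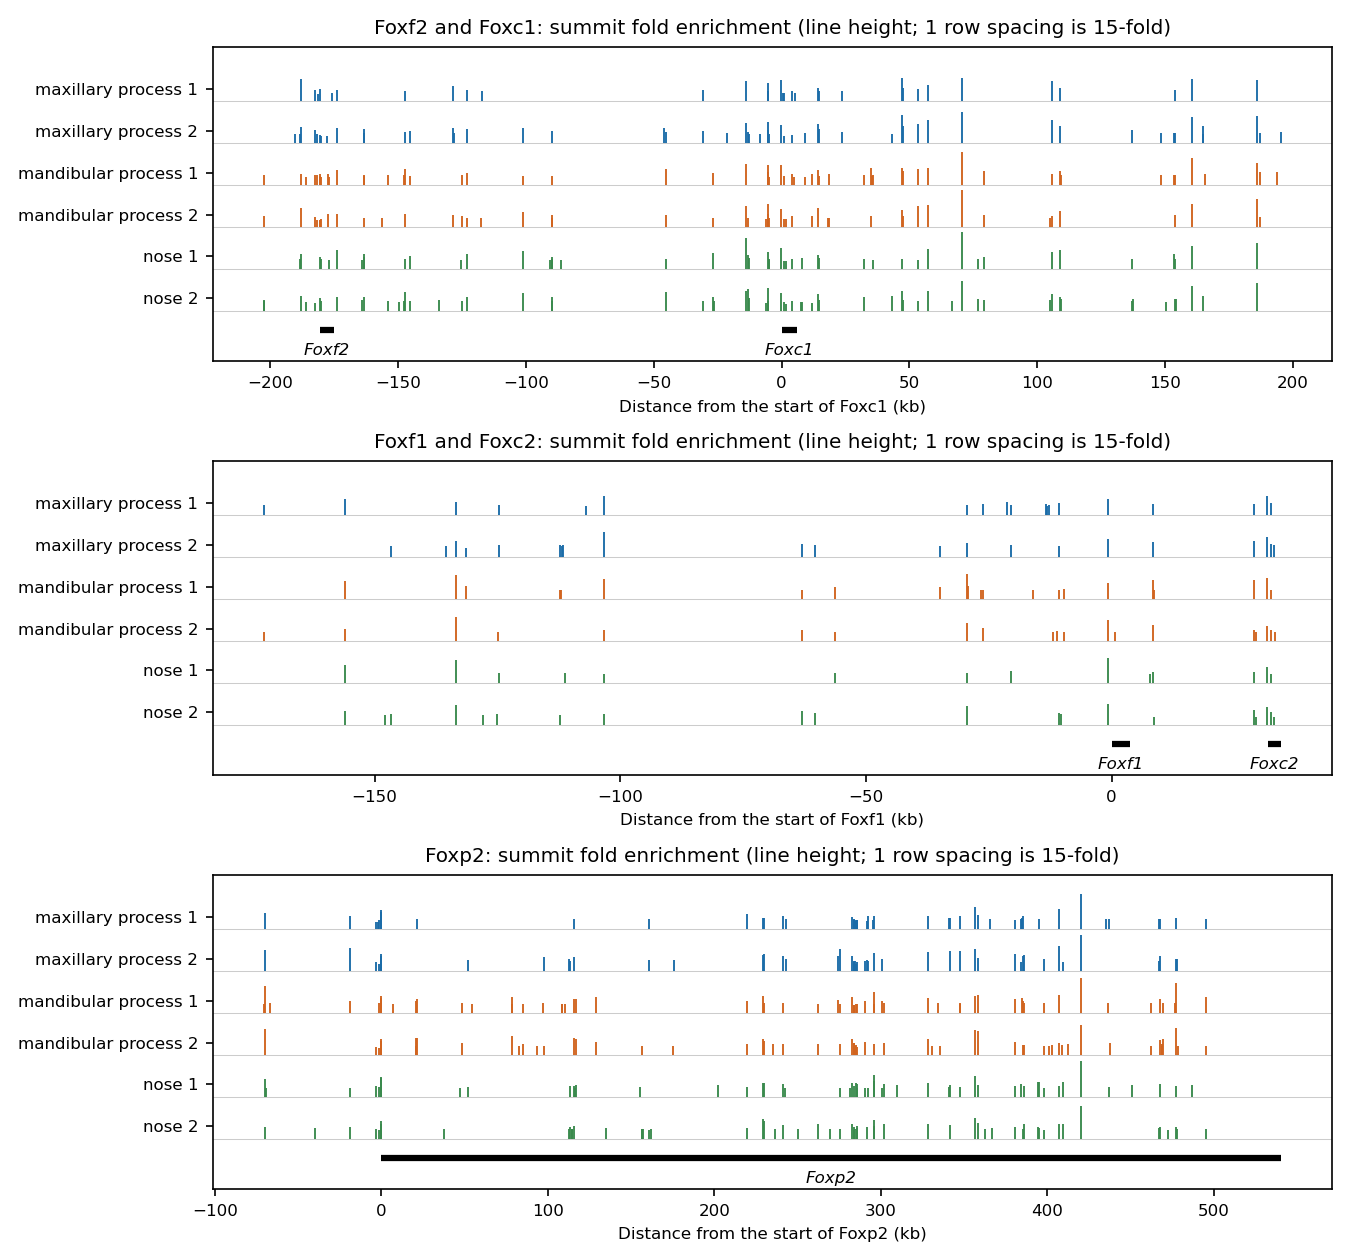
Regions called in each library (rows) along 3 loci, by distance in kb from the start of Foxc1, Foxf1 or Foxp2 (x axis); line height is the deposited fold enrichment at the summit, with 1 row spacing equal to 15-fold, and black bars are the genes. Most tall lines stand in all 6 rows, and the rows differ mainly in short lines.

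To ask which regions separated the labels, regions called in both libraries of 1 label and in neither of another were counted. Presence or absence with 2 libraries a label allows no test per region, and each count is read against the same share of all 302188 regions. Near the 8 genes, 22 regions (4.36%) were called in both maxillary and neither mandibular library, against 3.4% of all regions, and 36 (7.13%) the other way, against 5.17%. Between maxillary process and nose the counts were 14 (2.77%) and 24 (4.75%), against 3.6% and 5.37%. Between mandibular process and nose they were 30 (5.94%) and 20 (3.96%), against 4.89% and 4.85%. These shares lay near the background. The contrasts share libraries, so they are not independent of each other.

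The direction of these counts changed with the lists used. With all lists cut to the 219779 best-ranked summits of the shortest, the jaw counts were 20 and 24, those between maxillary process and nose 21 and 26, and those between mandibular process and nose 23 and 18. With summits of −log10 q of at least 3 they were 12 and 13, 17 and 14, and 20 and 17, so that maxillary process then led nose. Without maxillary replicate 1 the maxillary counts led instead, 62 against 44 mandibular and 54 against 30 nose. Without nose replicate 1 or 2 nose led mandibular process, 85 against 43 and 62 against 47. A label left with 1 library passes more easily, by construction.

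**Figure D3:**
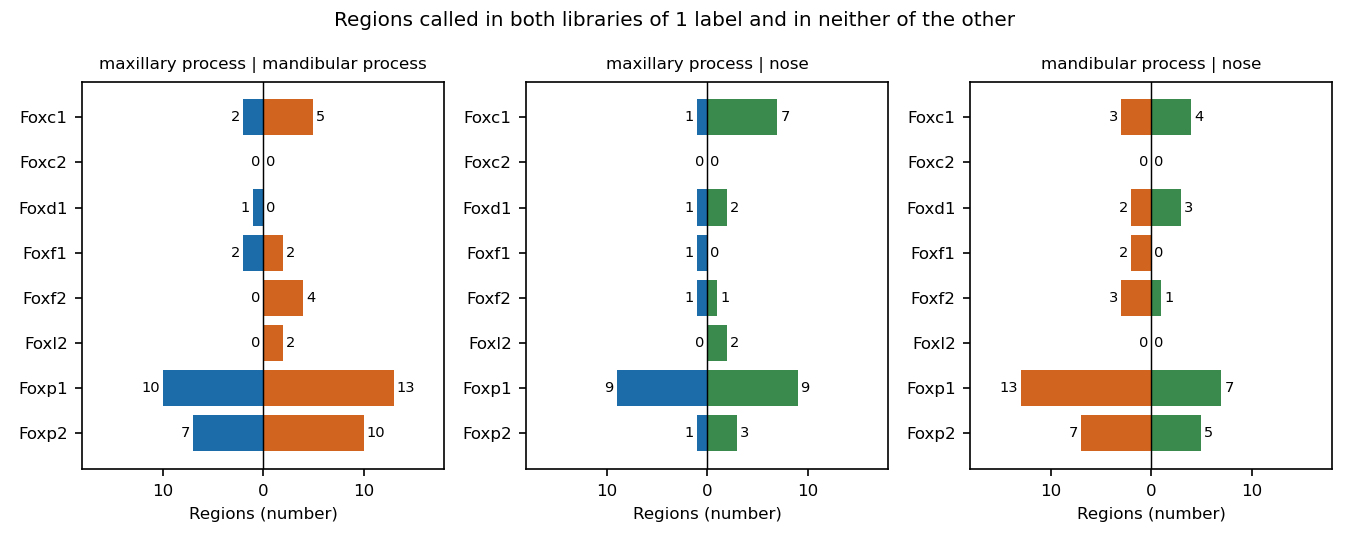
Regions near each gene (rows) called in both libraries of 1 label and in neither library of the other, for the 3 pairs of labels; bars run left for the first-named label and right for the second, and the x axis counts regions. Foxc1 had 1 region on the maxillary and 7 on the nose side, and Foxf2 had 0 on the maxillary and 4 on the mandibular side, which became 9 and 7, and 4 and 4, without maxillary replicate 1.

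By gene, Foxc1 had 7 regions in both nose and neither maxillary library and 1 the other way, or 10.6% and 1.52% of its 66 regions, against 5.37% and 3.6% of all regions. Without maxillary replicate 1, the shortest list, the counts were 7 and 9, and with −log10 q of at least 3 they were 2 and 2. Of the 7, Foxc1_7 and Foxc1_47 were also called in both mandibular libraries, and Foxc1_27 and Foxc1_46 in no jaw library. Foxf2 had 4 regions (10.8% of 37, against 5.17%) in both mandibular and neither maxillary library and 0 the other way, which became 4 and 4 without maxillary replicate 1 and 1 and 0 with −log10 q of at least 3. At Foxl2, Foxl2_6 and Foxl2_18 were called in all mandibular and nose libraries and in neither maxillary one. With lists of equal length, Foxl2 had 3 regions in both mandibular and neither maxillary library, and 2 in both nose and neither maxillary library. With −log10 q of at least 3 these counts were 2 and 0, and 1 region was in both maxillary and neither mandibular library. Foxl2_18, 10.4 kb from the start, had folds of 4.84 and 3.65 in mandibular and 3.93 and 3.97 in nose libraries. At Foxd1, Foxd1_13 was called in all 4 jaw libraries, with 6.04 and 5.92 in maxillary and 5.70 and 3.81 in mandibular, and in no nose library, while Foxd1_11 was called in the maxillary (5.90 and 4.88) and nose (5.02 and 5.79) but in no mandibular library. Foxf1 had 0 of its 43 regions in both nose and neither maxillary library, and 0 in both nose and neither mandibular library. The shares of all regions were 5.37% and 4.85%. The Foxf1 counts became 5 and 6 without nose replicate 1, and 4 and 4 without nose replicate 2. Regions of the 8 genes shared by exactly 2 labels numbered 3 (0.594%) for maxillary and mandibular process. They numbered 4 (0.792%) for maxillary process and nose, and 8 (1.58%) for mandibular process and nose. Over all regions the shares were 0.91%, 0.775% and 1.16%.

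Regions specific to a label, in both of its libraries and none of the other 4, numbered 7 (maxillary process), 17 (mandibular process) and 9 (nose), or 1.39%, 3.37% and 1.78% of the 505. Over all regions the shares were 1.84%, 2.64% and 2.9%. Of the 33, 25 lay in introns, 7 were intergenic and 1 was in a coding exon, and 2 were promoter regions. Foxc2 and Foxl2 had 0. Median folds of the label-specific regions were 3.93, 3.88 and 4.07, against 5.47 for members called in all 6 libraries. The first set is defined by absence from 4 lists, so a lower fold is partly built into this comparison. No value over all regions is set beside it.

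The best-ranked mandibular-specific region was Foxp2_21 in a Foxp2 intron 78.3 kb from the start, with folds of 5.70 and 6.67 and −log10 q of 6.23 and 8.25. Foxf2_15, in the Foxf2 intron, followed with 3.87 and 4.74 (−log10 q 5.90 and 8.63), and then Foxp2_39, a Foxp2 intron region with 5.70 and 4.77 and a full forkhead match. The 2 promoter regions among the 33 were also mandibular: Foxf2_12 in the coding exon of Foxf2 (3.90 and 2.52) and Foxp1_115 (2.96 and 3.26). In the nose libraries the best were Foxd1_16, intergenic and 59.2 kb from Foxd1, with 7.36 and 4.32 (−log10 q 9.27 and 3.47), Foxp2_101 with 5.23 and 4.32, and Foxp1_21 with 4.20 and 4.80. In the maxillary libraries they were Foxp1_160 with 3.62 and 5.76 (−log10 q 2.01 and 7.39), Foxp1_49 with 3.57 and 4.74, and Foxp1_17 with 3.62 and 4.34. The other label-specific regions had folds between 2.99 and 6.18. Each is missing from the other lists as called, which does not show that it was closed there.

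The share of each library's called regions that belonged to the 8 genes was 0.158% ± 0.0017 (SD, n = 2) under the maxillary label, 0.168% ± 0.0050 under the mandibular label and 0.160% ± 0.010 in nose. The shares differed by -0.010 percentage points between maxillary and mandibular process (exact permutation test, two-sided, p = 0.333), by -0.0022 between maxillary process and nose (exact permutation p = 1) and by 0.0082 between mandibular process and nose (exact permutation p = 0.667). The smallest p that 2 libraries against 2 allow is 0.333, so no difference could have passed.

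Strength was then compared in regions called in all 6 libraries, where no value is missing. The best summit fold of each region was log2-transformed and quantile-normalised, so that only its rank within a list counts, and the 69940 such regions of the genome were fitted together with limma. Over the genome, 640 regions (0.915%) were stronger in maxillary than in mandibular process at a Benjamini-Hochberg adjusted p under 0.05, and 619 (0.885%) the other way. Maxillary process exceeded nose in 858 (1.23%) and fell below it in 605 (0.865%), and mandibular process exceeded nose in 1319 (1.89%) and fell below it in 1023 (1.46%). Of the 86 regions near the 8 genes, 1 was stronger in maxillary than in mandibular process and 2 weaker, 2 were stronger in maxillary process than in nose and 0 weaker, and 3 were stronger in mandibular process than in nose and 0 weaker. With an unadjusted p under 0.05 there were 14, 12 and 15 of 86 in the 3 contrasts (16.3%, 14% and 17.4%), against 13.7%, 14% and 15.9% of all 69940 regions. Median log2 differences over the 86 were -0.038, -0.022 and -0.035, against 0.00092, -0.0096 and -0.0088 over all regions. A difference in bulk tissue may reflect more cells with an open region or a more open region per cell, and these cannot be told apart.

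**Figure D4:**
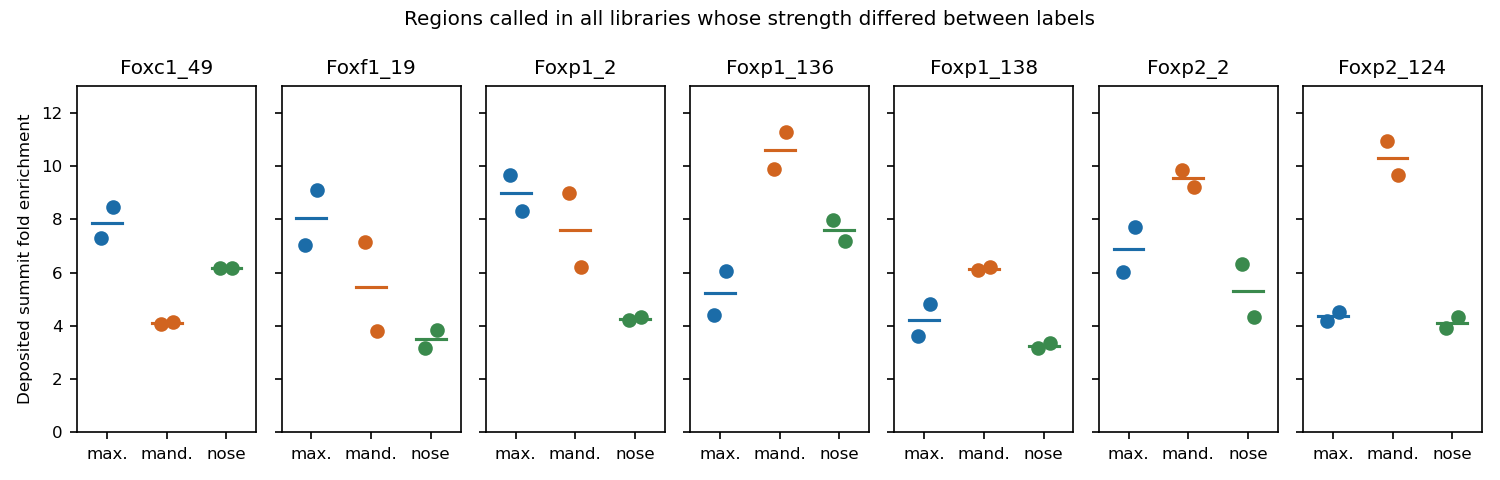
Deposited summit fold enrichment (y axis, from 0) in each library (points, with label means as lines) of the 7 regions called in all 6 libraries whose strength differed between labels. In Foxp2_124 both mandibular libraries, at 10.95 and 9.67, stand above all others, which reach 4.53.

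The largest difference was at Foxp2_124 (chr6:15378299-15379153), a region of 855 bp in a Foxp2 intron, 182 kb from the nearest annotated start. Its folds were 4.19 and 4.53 in maxillary, 10.95 and 9.67 in mandibular and 3.91 and 4.32 in nose libraries, so mandibular process stood apart and the other labels overlapped. It was weaker in maxillary than in mandibular process by a log2 difference of -1.29 (SE 0.25, limma, Benjamini-Hochberg adjusted p = 0.0049), and stronger in mandibular process than in nose by 1.3 (SE 0.25, adjusted p = 0.0028). The adjusted p for the jaw labels was 0.106, 0.115 and 0.0894 without maxillary replicate 1, maxillary replicate 2 and mandibular replicate 1, and 0.0441 without mandibular replicate 2. That against nose was 0.0634 without mandibular replicate 1 and between 0.0219 and 0.0386 without any other library.

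A second Foxp2 region, Foxp2_2 (chr6:14830806-14831401), intergenic and 70.3 kb upstream of the gene, had folds of 6.04 and 7.71, 9.85 and 9.22, and 6.31 and 4.32. Mandibular process was highest and the other labels overlapped. It exceeded nose by 0.83 (SE 0.24, limma, Benjamini-Hochberg adjusted p = 0.0444). Without nose replicate 2 the difference was 0.55 and the adjusted p was 0.444, and without nose replicate 1 they were 1.11 and 0.0432. Without maxillary replicate 1 or 2 the adjusted p was 0.0810 or 0.0858, and without mandibular replicate 1 or 2 it was 0.291 or 0.200.

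In Foxp1, Foxp1_136 (chr6:99354374-99355193), in an intron 80.8 kb from the nearest start, had folds of 4.39 and 6.04 in maxillary, 9.88 and 11.3 in mandibular and 7.97 and 7.19 in nose libraries, a graded order without overlap. It was weaker in maxillary than in mandibular process by -1.04 (SE 0.22, limma, Benjamini-Hochberg adjusted p = 0.0098), and its differences from nose did not pass (adjusted p = 0.191 and 0.304). Without maxillary replicate 1 or 2 the adjusted p of the jaw difference was 0.128 or 0.112, and without mandibular replicate 1 or 2 it was 0.0836 or 0.192.

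Foxp1_138 (chr6:99375018-99375283), in an intron 60.2 kb from the nearest start, had folds of 3.62 and 4.81, 6.10 and 6.20, and 3.15 and 3.36. The mandibular libraries were highest, and exceeded nose by 0.85 (SE 0.23, limma, Benjamini-Hochberg adjusted p = 0.0349). The adjusted p rose above 0.05 whichever library was left out, to 0.0652 and 0.0638 without maxillary, 0.149 and 0.158 without mandibular and 0.192 and 0.178 without nose replicate 1 and 2. Foxp1_2 (chr6:98829854-98830350), intergenic and 198 kb from the nearest start, near the limit of assignment, had folds of 9.66 and 8.29, 8.98 and 6.20, and 4.20 and 4.32. Both jaw labels were above nose, by 1.02 for maxillary process (SE 0.25, limma, Benjamini-Hochberg adjusted p = 0.0235) and by 0.76 for mandibular process, which did not pass (adjusted p = 0.0868). The maxillary call was lost without maxillary replicate 1 or 2 (adjusted p = 0.284 and 0.123) and without nose replicate 1 or 2 (0.135 and 0.116).

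At the FOXF and FOXC loci 1 region each differed. Foxf1_19 (chr8:120980681-120981341), in a Gm20388 intron 103 kb upstream of Foxf1, whose window holds the full forkhead match, had folds of 7.03 and 9.08 in maxillary, 7.13 and 3.81 in mandibular and 3.15 and 3.84 in nose libraries. The mandibular libraries were split, 1 at the maxillary and 1 at the nose level. Maxillary process exceeded nose by 1.18 (SE 0.27, limma, Benjamini-Hochberg adjusted p = 0.0162), which became 0.185 and 0.201 without maxillary replicate 1 and 2 and 0.163 and 0.0654 without nose replicate 1 and 2. Foxc1_49 (chr13:31911790-31912577), in a Gmds intron 106 kb from Foxc1, had folds of 7.29 and 8.46, 4.07 and 4.13, and 6.17 and 6.16, a graded order from maxillary process through nose to mandibular process. Maxillary process exceeded mandibular process by 0.94 (SE 0.25, limma, Benjamini-Hochberg adjusted p = 0.0399), which became 0.208 and 0.188 without maxillary replicate 1 and 2 and 0.248 and 0.180 without mandibular replicate 1 and 2.

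What the 505 regions shared in sequence was described by motif shares in the 201-base windows, beside those of all 302188 regions. The full forkhead letters were in 30 windows (5.94%), against 3.06%, and the core in 90 (17.8%), against 13.1%. Foxp2 held 13 of the 30 among its 128 regions (10.2%), and its windows had the lowest median GC content of the 8 genes, 41.8% against 48.3% over all regions. Foxp1 had 9 of 190 (4.74%), Foxf1 3 of 43, Foxc1 2 of 66, and Foxd1, Foxf2 and Foxl2 1 each. Among the 86 regions called in all 6 libraries, 4 held the full letters and 23 the core (26.7%, against 10.1% of such regions over the genome). The E-box was in 21.6% of member windows against 20.3%, SOX in 15.2% against 16.5%, homeodomain in 3.56% against 4.69%, TFAP2 in 8.12% against 7.01%, nuclear receptor in 8.12% against 10.3%, GLI in 0.990% against 0.496% and CTCF in 0.396% against 1.75%. Among the 33 label-specific regions the core was in 6 (18.2%), against 15.2% of such regions over the genome. These were 2 of 7 maxillary, 4 of 17 mandibular and 0 of 9 nose regions, too few to compare the labels. These are matches of letters and no evidence of binding. In RefSeq's table of GRCm38.p6 promoters, 5 of the 8 genes were matched (Foxc1, Foxd1, Foxf2, Foxl2 and Foxp1), and the 250 bases before their starts held 29, 12, 21 and 22 CpG for the first 4, against a median of 6 over 32851 promoters. The 3 Foxp1 starts held 34, 3 and 11. The forkhead core stood before all 3 Foxp1 starts and before none of the starts of the other 4 genes, against 12% of all promoters.

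The other 36 forkhead genes served as a comparison within the family, with 947 regions. Of these 175 (18.5%) were called in all 6 libraries. A promoter region assigned to the gene was called in all 6 for 22 genes and in none for 8, among them Foxm1 and Foxp3 with 0 regions assigned. Unlike for the marker promoters, summits nearer to the start of another gene were not counted here, so these promoters may still have been called. There were 73 label-specific regions, at 23 genes. The most were at Foxn3 (10 of 153 regions) and Foxa2 (9 of 110), a regulator of endoderm and floor plate for which 7 were maxillary. Foxn2 had 8 of 64, Foxo3 7 of 51 and Foxi3, an ectodermal gene, 5 of 26. Of the 947 regions, 2.43%, 2.43% and 2.85% were specific to maxillary process, mandibular process and nose. The shares of all regions were 1.84%, 2.64% and 2.9%, or 7.38% for any label. Differences between genes were not tested. Of the neighbours of the 8 genes, Foxq1 had 27 regions, 3 of them label-specific, and Foxl1 had 45, with 2. In the jaw contrast the 36 genes had 41 regions in both maxillary and neither mandibular library (4.33%) and 64 (6.76%) the other way, beside the 4.36% and 7.13% of the 8 genes.

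The genes whose share of called regions over the 6 libraries was most like that of the 8 together, among 4740 genes with at least 20 regions, were Rfpl4b (Pearson r = 0.986), Traf6 (0.986) and Pank3 (0.977), and 34 genes exceeded 0.9. With 6 points that share list length, this describes the libraries only.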

How the data were processed

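Peak lists of bulk ATAC-seq from mouse face at E11.5 (single-end reads of 50 bp) were used as deposited, 1 list per library. Bowtie2, SAMtools and mm10 are named in the submitters' processing notes. The peak caller is not given in the sources used here. For each summit the authors deposited a score, a fold enrichment over local background (a ratio), a −log10 p and a −log10 q. Reads were not used, so depth and detection limits are unknown, and a region missing from a list may lie under its threshold.

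Here summits were ranked within lists, intervals sharing at least 1 bp were merged, and the strongest summit was assigned to the nearest protein-coding start (GENCODE M21 basic set, 21827 genes) within 200 kb. Promoters are summits within 1 kb of a start. Presence was compared by counts. The share of called regions was tested by exact permutation over libraries. The log2 fold of regions called in all 6 libraries was quantile-normalised and fitted by limma 3.58.1 (R 4.3.3) with a trend, Benjamini-Hochberg adjustment over all regions and a threshold of 0.05. Merging and the limma step were tested on simulated data. Python 3.11.15 with numpy 2.4.6, pandas 2.3.3 and scipy 1.17.1 was used. Sequences are from RefSeq's GRCm38.p6.

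The members, lists and tests were chosen with earlier results of these data known. Named were, by rule, each gene's strongest promoter region, its distal region with the best worst rank over the lists, the 3 best-ranked specific regions per label, all limma calls, the 5 other forkhead genes with most label-specific regions, Foxq1 and Foxl1. Further regions in the paragraph on presence by gene were chosen after their values were seen. Alternatives were equal list lengths, −log10 q of at least 3, coverage of 50% or 200 bp, genes within 100 kb, median centring, −log10 p in place of fold, a replicate block, and leaving out each library.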

Additional observations from a re-analysis of the deposited data

How the results depend on the processing

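Of 635 recomputed values, 376 kept their direction and their side of the threshold or stayed within 1.5 times, 224 counts moved further, 32 calls were lost and 3 differences reversed. With −log10 q of at least 3, counts fell to 12 (both maxillary, neither mandibular), 13 (the reverse), 14 (both nose, neither maxillary), 4 and 10 (specific to maxillary and mandibular process) and 48 (called in all 6). By coverage of 50% or 200 bp, maxillary-specific regions were 12, nose-specific 15 and those in all 6 libraries 56. The share difference reversed between maxillary and mandibular process (0.0016 percentage points) and between maxillary process and nose (0.0033) at that q, and between maxillary process and nose without nose replicate 2 (0.0049). It ranged from -0.0139 to -0.0068, -0.0092 to 0.0049 and 0.0011 to 0.0152 over left-out libraries in the 3 contrasts. The cause of these changes was not tested, and shares of all regions at these settings are not given. Leaving out libraries gave 28 to 62 regions in both maxillary and neither mandibular library, 44 to 96 in the reverse, 25 to 54 in both maxillary and neither nose, 30 to 95 in the reverse, 43 to 87 in both mandibular and neither nose and 28 to 85 in the reverse, with 8 to 31, 20 to 63 and 11 to 58 specific to maxillary process, mandibular process and nose and 88 to 99 in all libraries used. A smaller number of libraries makes each of these conditions easier to meet.

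In the limma comparison, median centring gave 5 members stronger in mandibular process than in nose, −log10 p in place of fold gave 2 stronger in maxillary than in mandibular process, and −log10 q of at least 3, which left 48 members to test, gave 1 stronger in mandibular than in maxillary process, 1 stronger in maxillary process than in nose and 0 stronger in mandibular process than in nose. Foxp2_124, Foxf1_19 and Foxp1_138 were not in that set, and Foxp2_2 missed the threshold (adjusted p = 0.0527). Leaving out libraries gave 0 to 1 and 0 to 2 calls between the jaw labels, 0 to 2 for maxillary process over nose, 0 to 2 for mandibular process over nose and 0 in either contrast for nose. Without either maxillary library limma called 0 regions of the genome in the maxillary contrasts, with 7 to 11 members at an unadjusted p under 0.05, and the lone library left was taken to vary like the others. Genome-wide calls moved by over 1.5 times at −log10 q of at least 3 (160 and 170, 274 and 182, 480 and 330), with −log10 p (1104 and 1155, 1292 and 1082, 1616 for nose over mandibular process) and with median centring (1547 for nose over mandibular process). Whether same-numbered libraries were paired is not stated. Their deviations correlated by 0.0070, 0.065 and 0.031, which cannot decide it, since the spread of single libraries could hide a pairing. With a replicate block, limma called 1 and 2, 3 and 0, and 4 and 0 members in the 3 contrasts. Over the genome it called 962 and 952, 1260 and 941, and 1738 and 1382 regions, more than without the block in each direction. With the block the share test gave exact permutation p of 0.5, 1 and 1.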
